A study of Saccharomyces cerevisiae with 16 samples.

Results

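synHPRT1R is a synthetic locus of about 100 kb in which the bases of the human HPRT1 region stand in reverse order on the same strand, so that it keeps the base composition of human DNA but reads as a sequence without a natural counterpart. The regions described here are the H3K4me3 peaks on this contig, taken as all peaks on the synthetic contig with a summit below base 100735, in the 4 H3K4me3 libraries of yeast carrying synHPRT1R. They number 211 of 15304 peaks in these libraries and of 30753 peaks in the 8 H3K4me3 libraries of the series. YAC replicates 1 and 2 held 46 and 63 of them, out of 3463 and 3939 peaks, and integrated replicates 1 and 2 held 52 and 50, out of 4021 and 3881 peaks.

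All libraries came from Saccharomyces cerevisiae strain BY4741. In the synHPRT1R YAC group the locus was an episome (a yeast artificial chromosome) on a vector with a yeast centromere, a replication origin and LEU2, and cells grew in SC-Leu. In the synHPRT1R integrated group the locus had been moved by Cre recombination from that episome into chromosome XI, and cells grew in YPD, so context and medium cannot be told apart. Each group was 1 strain with 2 libraries from separate clones, which the study calls technical replicates in one place and biological replicates in others. Differences between replicates are thus differences between clones of a strain. Tests of YAC against integrated libraries compare 1 strain with 1 other. Tests of locus against genome, and the test against synHPRT1, pool both contexts, so their p-values and SDs also take in differences between strains and media. YAC replicate 1 stood apart from the other libraries, with the fewest peaks, the most wide peaks and a list whose peak names were formed in another way, and results are also given without it where they change. Libraries with synHPRT1, the same region in its natural order, were used for 1 tested comparison and for values of fragments set beside it. The 8 IgG libraries were not analysed here. One label of synHPRT1 YAC replicate 2 names synHPRT1R, against its title and genotype, and it was used as synHPRT1. The labels of context were checked on the vector backbone, where the synHPRT1R YAC libraries had 4 and 5 peaks and the integrated libraries had 0 and 0. Nearest to the limit that defines the locus, the last peak inside it in YAC replicate 1 had its summit 1781 bp from the limit with a fold enrichment of 1.17, and the first peak outside it lay 169 bp beyond with 2.46.

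Trimethylation of lysine 4 on histone H3 is placed in budding yeast by the Set1 enzyme of the COMPASS complex, which travels with RNA polymerase II as it starts transcription. The mark therefore collects over the nucleosomes at the 5′ ends of transcribed genes. CUT&RUN maps it by directing a nuclease to the bound antibody and sequencing the released fragments. A peak is an interval where fragments exceed the background, and its summit is the base with most fragments. The fold enrichment compares the summit with a local background, and the −log10 q value states how unlikely that excess is after adjustment. From these the number of fragments over each summit was solved.

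Parts of the DNA under these peaks are known from the starts of the pieces from which the locus was synthesised, 27 stretches of 399 bases that make up 10.7% of the locus. The windows printed first are from sites with summits of at least 3 libraries, 2 or more of them inside such a stretch. They are shown because they hold the bases at which the libraries placed their summits, and capitals run from the first to the last summit inside the stretch. They are the strongest such sites by their weakest library. A weaker one at 36.6 kb, in a stretch with a G + C content of 36.8%, is not printed: its fold enrichment was 1.41 and 1.45 in YAC libraries and 1.47 in integrated replicate 2, and integrated replicate 1 had no peak there. All are read 5′ to 3′ on the given strand of the contig, in bases counted from its start.
Site at 0.341 kb, contig bases 281 to 419: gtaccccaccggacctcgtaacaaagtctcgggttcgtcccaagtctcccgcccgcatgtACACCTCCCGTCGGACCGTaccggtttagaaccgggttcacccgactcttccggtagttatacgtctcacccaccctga
Site at 11 kb, contig bases 10936 to 11155: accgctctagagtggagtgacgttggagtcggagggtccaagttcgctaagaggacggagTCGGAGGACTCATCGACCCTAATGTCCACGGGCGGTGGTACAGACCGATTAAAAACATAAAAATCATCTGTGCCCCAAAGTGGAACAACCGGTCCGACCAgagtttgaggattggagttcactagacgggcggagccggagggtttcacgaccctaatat
Site at 47.6 kb, contig bases 47532 to 47734: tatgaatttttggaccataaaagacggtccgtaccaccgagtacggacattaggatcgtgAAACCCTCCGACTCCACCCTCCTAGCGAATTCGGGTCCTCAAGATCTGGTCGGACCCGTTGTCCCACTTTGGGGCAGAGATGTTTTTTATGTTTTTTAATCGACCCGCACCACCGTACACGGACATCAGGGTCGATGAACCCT
Site at 77.0 kb, contig bases 76979 to 77237: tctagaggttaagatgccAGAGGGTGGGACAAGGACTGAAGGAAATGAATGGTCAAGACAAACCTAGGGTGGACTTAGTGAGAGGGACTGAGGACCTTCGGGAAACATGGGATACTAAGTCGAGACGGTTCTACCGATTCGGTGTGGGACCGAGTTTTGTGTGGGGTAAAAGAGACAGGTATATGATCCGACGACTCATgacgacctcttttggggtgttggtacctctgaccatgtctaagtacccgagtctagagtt
Site at 84.2 kb, contig bases 84115 to 84245: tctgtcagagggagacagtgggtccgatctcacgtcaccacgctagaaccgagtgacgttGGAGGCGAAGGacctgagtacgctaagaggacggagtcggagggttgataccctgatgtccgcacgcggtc
The G + C content of these windows was 59.7%, 53.6%, 50.7%, 49.4% and 59.5%, in the order printed. The next sequences are the first 200 bases of the stretches with the lowest and the highest G + C content among the 7 that lay under no peak in any library, with TATAAA on either strand in capitals.
Uncovered stretch of lowest G + C content, contig bases 58455 to 58654: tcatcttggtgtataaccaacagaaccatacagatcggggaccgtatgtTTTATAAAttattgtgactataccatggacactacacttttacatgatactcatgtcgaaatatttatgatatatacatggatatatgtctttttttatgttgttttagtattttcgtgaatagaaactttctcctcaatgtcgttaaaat
Uncovered stretch of highest G + C content, contig bases 51068 to 51267: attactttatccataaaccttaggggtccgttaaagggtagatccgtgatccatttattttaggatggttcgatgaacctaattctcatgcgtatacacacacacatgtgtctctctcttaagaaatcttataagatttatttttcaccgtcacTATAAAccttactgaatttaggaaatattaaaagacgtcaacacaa
Over the 200 bases printed the G + C content was 30.5% in the first and 34% in the other. Over all 399 bases it was 25.3% in the first and 42.1% in the other. In the first the capitals are 2 matches, 1 on each strand, that overlap, and in the other they are 1 match. The letters TATAAA are the core of the TATA box bound by the TATA-binding protein at many yeast promoters.

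Across the contig the peaks formed 94 sites, a site being a run of summits from any of the 4 libraries with gaps of at most 200 bp. Peaks were found along the whole of synHPRT1R, from a first summit at base 341 to a last one at base 98955, with none in the final 735 bp beyond 100 kb. Peaks of all 4 libraries lay over 21.8% of the bases and peaks of at least 1 library over 54.8%. The remaining 45.2% lay under no peak, in 57 runs. For the nuclear chromosomes in the same libraries these shares were 17.7%, 29.8% and 70.2%. The longest run without a peak was 2907 bp (bases 58342 to 61248), followed by 2883 bp (38569 to 41451) and 2005 bp (93812 to 95816). The longest run under peaks of all 4 libraries was 1548 bp (7450 to 8997), and the next was 1334 bp (16675 to 18008).

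**Figure D1:**
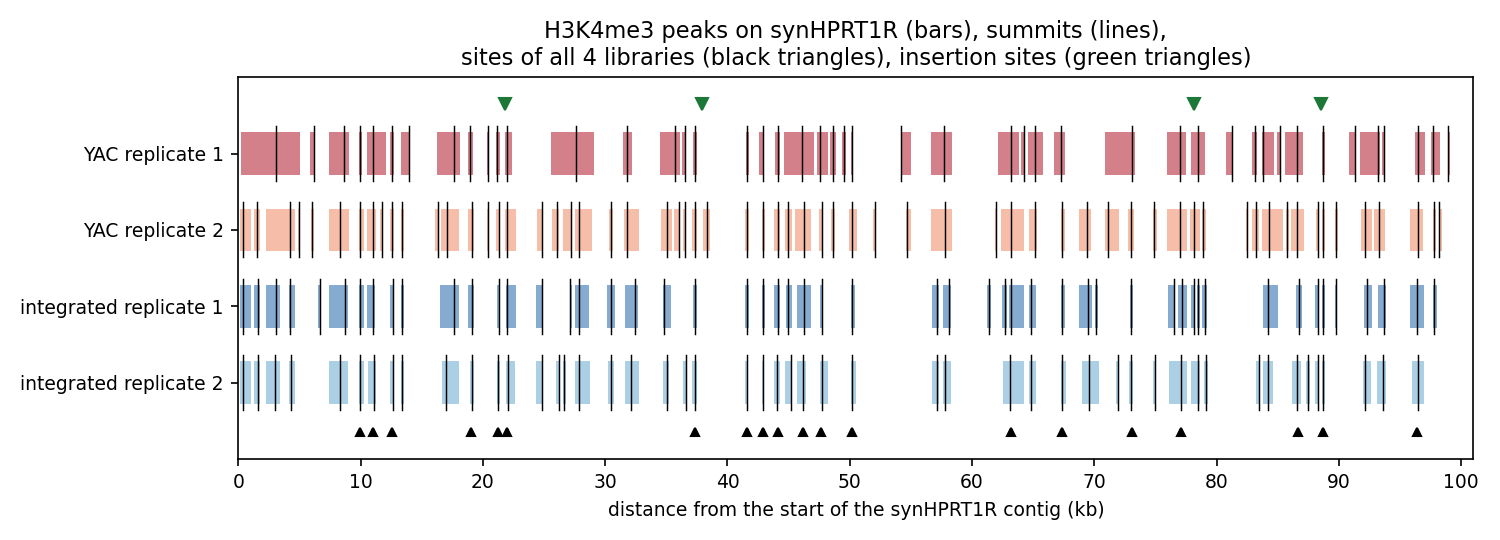
Peaks of the 4 libraries along synHPRT1R. Bars are peaks and thin lines their summits, the x axis is the distance from the start of the contig in kb, black triangles mark the 20 sites with a summit in all 4 libraries, and green triangles mark 4 positions where a reporter was inserted in other strains. Peaks run along the whole contig in each library, with shared gaps near 39 to 41 kb and 58 to 61 kb.

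The peaks differed in size between contexts and between the YAC replicates. Median width was 636 and 473 bp in YAC replicates 1 and 2, and 489 and 506 bp in integrated replicates 1 and 2. YAC replicate 1 had 13 peaks of 1500 bp or more and YAC replicate 2 had 7, against 1 and 2 in the integrated libraries. The widest was a peak of 4837 bp in YAC replicate 1 (bases 217 to 5053). Over that interval the other YAC library had summits at bases 359, 1517, 4256 and 4952, and the integrated libraries had 4 summits each. Median −log10 q was 23.9 and 24.6 in YAC libraries and 11.9 and 9.72 in integrated libraries. A −log10 q of at least 10 was reached by 39 and 56 peaks in YAC libraries and by 31 and 24 peaks in integrated libraries. The weakest peak of each library had a −log10 q of 2.99 and 4.73 in YAC libraries and 2.64 and 2.86 in integrated libraries.

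Ranked by its weakest library, the strongest site shared by all libraries lay near the far end of the contig, at 96.4 kb. Its summit stood at base 96448 in both YAC libraries, and at bases 96386 and 96453 in integrated replicates 1 and 2. Fragments over the summit numbered 1044 and 1251 in YAC libraries, against 199 and 261 in integrated libraries. Fold enrichment was 1.97 and 3.03 in YAC libraries and 2.53 and 3.11 in integrated libraries. The contexts did not overlap in fragments but overlapped in fold enrichment, with YAC replicate 1 lowest. The −log10 q of 237 in YAC replicate 2 and of 52.2 in integrated replicate 2 were the highest of any peak on the contig in those libraries. In YAC replicate 1 the highest, 107, belonged to the peak at base 57687, and in integrated replicate 1 the highest, 32.4, belonged to the peak at base 17651.

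The site at 11 kb, whose sequence is printed above, came next by its weakest library. It had 1002 and 1121 fragments in YAC libraries and 215 and 240 in integrated libraries. Its fold enrichment was 1.67 and 2.33 in YAC libraries and 2.16 and 2.27 in integrated libraries, so here too YAC replicate 1 alone stood lower. Its summits spread over 99 bp, and the peak was 1525 bp wide in YAC replicate 1 but between 670 and 716 bp in the other libraries. At the 47.6-kb site, also printed above, fragments were 985 and 901 in YAC libraries and 190 and 196 in integrated libraries. Fold enrichment there was 1.49 and 1.86 in YAC libraries, below the 2.35 and 2.21 of integrated libraries.

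A narrower peak lay at 37.3 kb, with summits within 19 bp of each other in all libraries and widths between 333 and 417 bp. It had 929 and 904 fragments in YAC libraries and 174 and 185 in integrated libraries, and its fold enrichment of 1.56 in YAC replicate 1 compared with 2.24 in YAC replicate 2 and 2.21 in both integrated libraries. At 77.0 kb the fragments were 869 and 956 in YAC libraries and 185 and 179 in integrated libraries. This was a broad peak in 3 libraries (1599 and 1620 bp in YAC libraries, 1478 bp in integrated replicate 2) and a narrower one of 748 bp in integrated replicate 1, where a separate peak stood at base 76492. Of the other sites that ranked highest among those of all libraries, the one at 46.1 kb reached 1209 fragments in YAC replicate 1, the most of any peak in that library, beside 1007 in YAC replicate 2 and 164 and 193 in integrated libraries. The site at 63.1 kb had 1016 and 941 fragments in YAC libraries and 157 and 188 in integrated libraries. At 22.0 kb the fragments were 821 and 870 in YAC libraries and 184 and 194 in integrated libraries.

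At both ends of the contig the peaks were less evenly shared. The first site, at 0.341 kb, held summits in YAC replicate 2 and both integrated libraries, with 642 fragments in YAC replicate 2 and 200 and 188 in integrated libraries. YAC replicate 1 had no summit there but covered it with its widest peak. The last site, at 99.0 kb, was a summit of YAC replicate 1 alone, with 544 fragments, a fold enrichment of 1.17 and the lowest −log10 q of that library.

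Counted over the contig, 20 of the 94 sites (21.3%) had a summit in all 4 libraries, where 37.0% of the 5612 nuclear sites formed in the same way did. A summit in 1 library alone was the commonest pattern on the contig, with 36 sites (38.3%), against 26.9% of nuclear sites. YAC replicates 1 and 2 accounted for 11 and 12 of these 36 sites, and integrated replicates 1 and 2 for 8 and 5. A further 13 sites had a summit in all libraries but YAC replicate 1, a share of 13.8% close to the 13.0% of nuclear sites. Without YAC replicate 1, sites with a summit in all remaining libraries numbered 33 of 83 (39.8%), against 54.9% of nuclear sites. Replicates shared 30 of the 79 sites seen in either YAC library (38.0%) and 38 of the 64 seen in either integrated library (59.4%). For nuclear sites these shares were 53.0% and 68.9%. Summits of the 20 shared sites spread over 9 to 180 bp, with a median of 67 bp.

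Summits move within wide peaks, so presence was also judged by whether a peak of a library covered any summit of the site. By that measure 51 sites (54.3%) were under peaks in all 4 libraries, against 74.5% of nuclear sites, and 13 (13.8%) were covered in 1 library alone, against 6.75%. The longest run under peaks of all libraries, at bases 7450 to 8997, shows the difference between the measures. Its summits lay at base 8651 in YAC replicate 1 and 8682 in integrated replicate 1, but at 8350 in YAC replicate 2 and 8347 in integrated replicate 2, and so made 2 sites. The next longest run split in the same way, with summits at 17659 in YAC replicate 1 and 17651 in integrated replicate 1, and at 17027 in YAC replicate 2 and 16966 in integrated replicate 2.

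**Figure D2:**
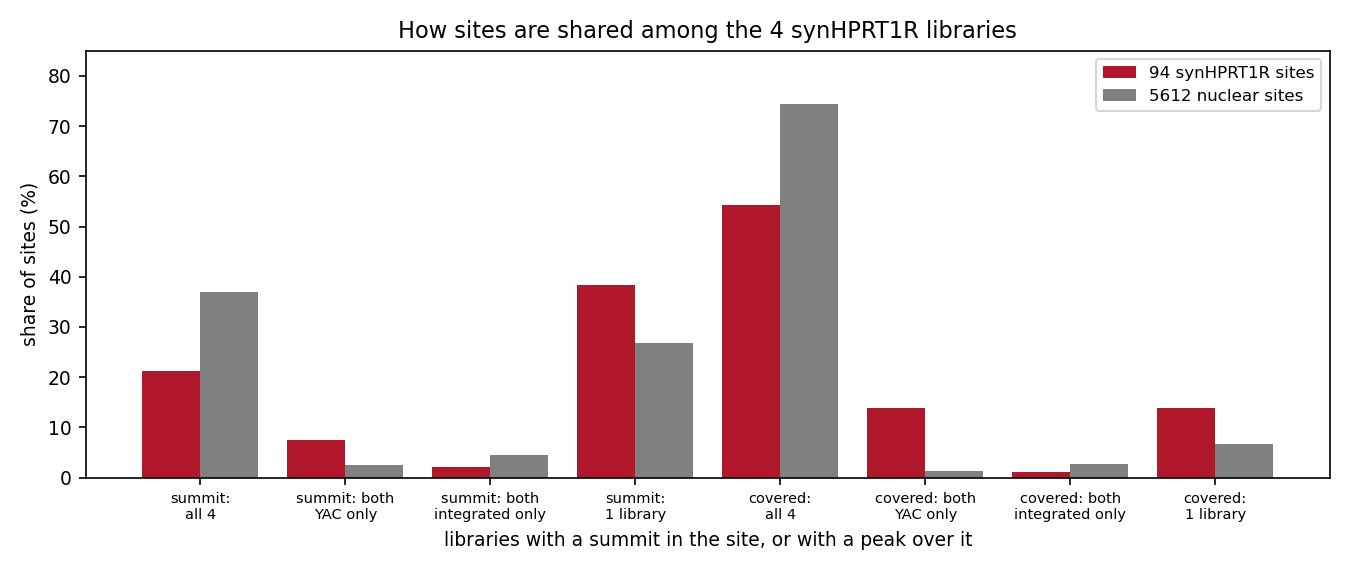
Share of sites by the libraries that hold them, for the 94 sites of synHPRT1R (left bars) and the 5612 nuclear sites of the same 4 libraries (right bars). The y axis is the share of sites in percent, judged by a summit in the site or by a peak over it. Sites covered in both YAC and no integrated library make up 13.8% of the contig's sites and 1.41% of nuclear sites.

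A summit in both YAC and no integrated library was found at 7 of the 94 sites (7.45%), against 2.53% of nuclear sites. The strongest of them was at 65.1 kb, with 885 and 1010 fragments in YAC libraries. It was not free of peaks in the integrated libraries, which both covered it from summits at bases 64838 and 64832. The sites at 31.8 kb (982 and 957 fragments in YAC libraries) and 93.2 kb (756 and 806) were likewise covered by peaks of both integrated libraries. At 48.6 kb, with 952 and 646 fragments and a fold enrichment of 1.53 and 1.41 in YAC libraries, no integrated peak reached the site. The sites at 6.06 and 20.4 kb shared this state, and so 3 of the 7 were under peaks of the YAC libraries alone. The last of the 7, at 83.1 kb, was covered in integrated replicate 2.

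The reverse pattern, a summit in both integrated and no YAC library, was met at 2 sites (2.13%), against 4.51% of nuclear sites. These lay at 64.8 kb, next to the YAC site at 65.1 kb, and at 57.1 kb. They had 192 and 206 fragments at 64.8 kb and 183 and 177 at 57.1 kb in integrated libraries, and both YAC libraries covered them, with peaks of 680 to 1713 bp. By cover, 13 sites (13.8%) belonged to both YAC and no integrated library, against 1.41% of nuclear sites, and 1 site (1.06%) to both integrated and no YAC library, against 2.64%. That site lay at 70.1 kb, with a summit of 113 fragments in integrated replicate 1. In bases, 7.43% of the contig was under peaks of both YAC and no integrated library, against 0.568% of the nuclear genome, and 0.732% was under peaks of both integrated and no YAC library, against 1.10%.

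The relation between contexts was uneven in direction. Of the 79 sites with a YAC summit, 56 (70.9%) lay under a peak of at least 1 integrated library, where 94.0% of nuclear sites with a YAC summit did. Of the 64 sites with an integrated summit, 60 (93.8%) lay under a peak of at least 1 YAC library, where 92.9% of nuclear ones did. Fragments over the contig were several times more numerous in YAC libraries, as given below, and the part of this depth in the number of sites called was not tested.

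In 10-kb bins the summits were spread over the whole contig with 1 thin bin. The bin from 40 to 50 kb held most summits over the 4 libraries, 26, with 7 and 7 in YAC libraries and 6 and 6 in integrated libraries. It also held 5 of the 20 sites shared by all libraries, the most of any bin, at 41.6, 42.9, 44.1, 46.1 and 47.6 kb. The bin from 50 to 60 kb held fewest, 13, with 3 and 4 in YAC libraries and 3 and 3 in integrated libraries. It was also the least covered bin in each library, at 27.7% and 28.5% in YAC libraries and 15.8% and 15.9% in integrated libraries. In integrated libraries its peaks lay at 50.2 kb and between 57.1 and 58.1 kb alone, and YAC libraries had further summits at bases 52099, 54224 and 54665, each in 1 library. The peak at 57.7 kb had a fold enrichment of 2.25 in YAC replicate 1 and of 3.19 in YAC replicate 2, the highest of any peak on the contig. Nuclear windows of 10 kb held a mean of 2.81 and 3.20 summits in YAC libraries and 3.29 and 3.17 in integrated libraries. Of the 10 whole bins, 10 and 10 exceeded that mean in YAC libraries, and 9 and 8 in integrated libraries. The fullest bin of each library had 7 and 8 summits in YAC libraries, a number met or passed by 0.167% and 0.0833% of 1200 nuclear windows. In integrated libraries it had 7 and 6, met or passed by 1.5% and 4.92%.

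**Figure D3:**
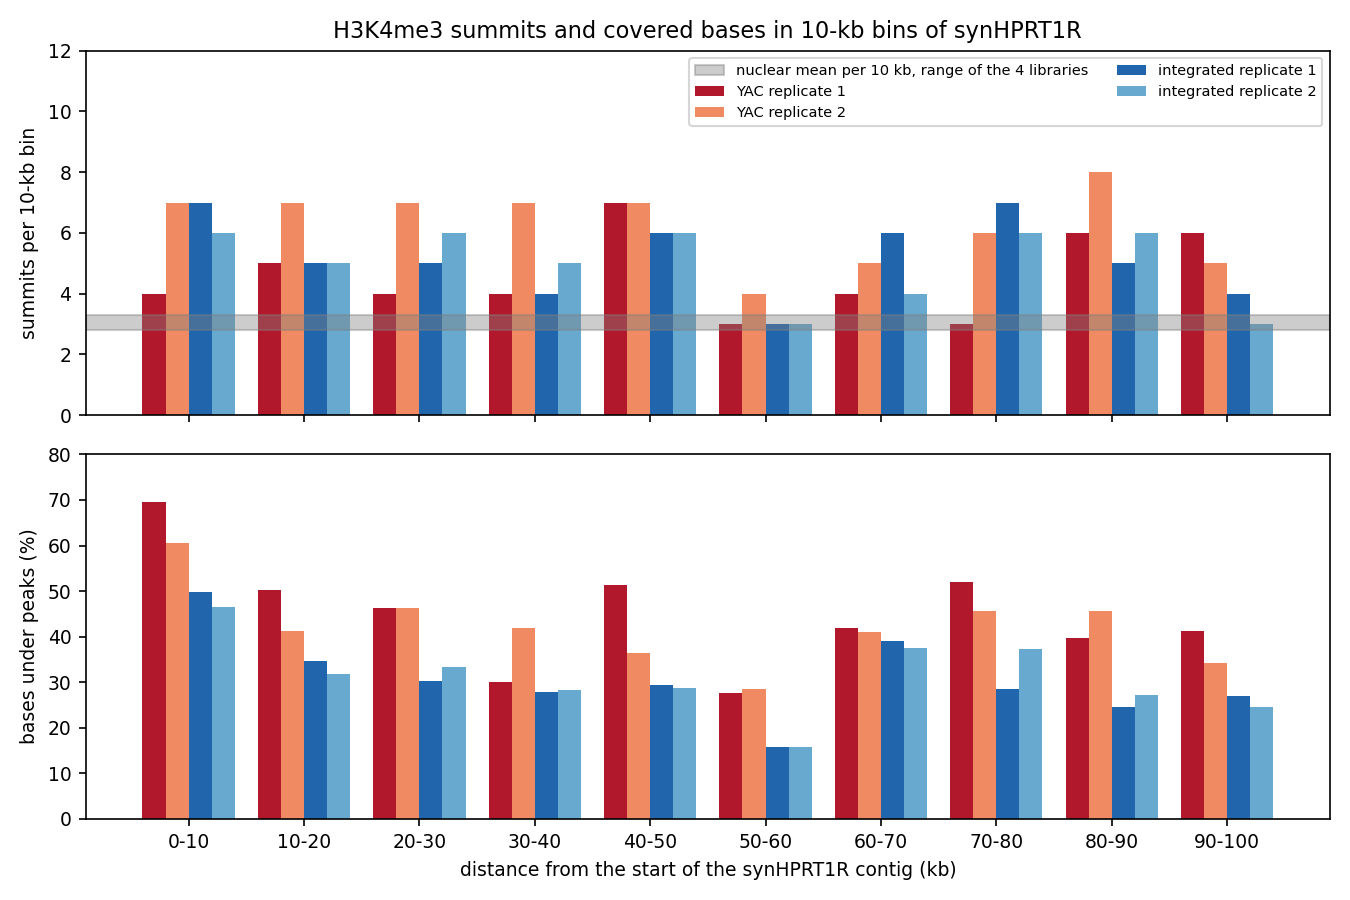
Summits (upper panel) and share of bases under peaks in percent (lower panel) in the 10 whole 10-kb bins of synHPRT1R, one bar per library, by distance from the start of the contig. The grey band is the range over the 4 libraries of the mean number of summits in nuclear 10-kb windows. The bin from 50 to 60 kb is lowest in covered share in each library, at 15.8% to 28.5%.

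Covered share fell into a different order from summit number. The bin from 0 to 10 kb was most covered in each library, with 69.6% and 60.5% in YAC libraries and 49.9% and 46.4% in integrated libraries, and held 4 and 7 summits in YAC libraries and 7 and 6 in integrated libraries. YAC replicate 1 thus had the highest share with the fewest summits there, since 1 peak took up most of the first 5 kb. Between 10 and 20 kb the share was 50.3% and 41.3% in YAC libraries and 34.7% and 31.9% in integrated libraries. From 20 to 30 kb it was 46.4% and 46.2% in YAC libraries, and 30.3% and 33.4% in integrated libraries. The bin from 20 to 30 kb held the peak group at 27.9 kb, where YAC replicate 2 had 1212 fragments and a fold enrichment of 2.36, beside 226 and 243 fragments in integrated libraries. YAC replicate 1 covered it with a peak of 3536 bp whose summit was at base 27595.

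Contexts came closest in coverage between 30 and 40 kb and between 60 and 70 kb. In the bin from 30 to 40 kb YAC replicate 1 had 30.0%, near the 27.8% and 28.3% of integrated libraries, while YAC replicate 2 had 41.9%. In the bin from 60 to 70 kb the shares were 41.9% and 41.0% in YAC libraries and 39.1% and 37.5% in integrated libraries. Contexts were apart in the bin from 80 to 90 kb, with 39.7% and 45.6% in YAC libraries and 24.5% and 27.3% in integrated libraries. This bin held 13 sites, the most of any bin, of which 2 were shared by all libraries. The lowest YAC share exceeded the highest integrated share in each of the 10 bins.

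The number of fragments separated the contexts at each of the 20 shared sites. To set libraries beside each other, fragments were divided by the median over nuclear summits of the same library. The ratio ran from 3.76 to 6.30 in YAC replicate 1 (median 4.67) and from 3.36 to 6.87 in YAC replicate 2 (median 4.77). In integrated replicate 1 it ran from 0.707 to 1.17 (median 0.894) and in integrated replicate 2 from 0.680 to 1.29 (median 0.842). No YAC value came near an integrated one. The YAC ratio was higher at each site by 4.58-fold (21.2 kb) to 6.73-fold (42.9 kb), with a median of 5.30-fold over the 20 sites. On the log2 scale the difference was at least 2.19, against a largest difference between replicates of 0.40.

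The local background moved with the fragments. Over the same sites it stood at a median of 5.93 and 5.95 times the genome-wide background in YAC libraries, and 1.04 and 1.05 times in integrated libraries. In integrated libraries the lowest ratio was 1.00, the genome-wide background itself, and a lower local background would not show. Fold enrichment, which divides by this background, had medians of 1.5 and 1.87 in YAC libraries and 1.87 and 1.78 in integrated libraries, and the ranges overlapped. More copies of the locus per cell and more signal per copy cannot be told apart in these lists, nor can context and medium. Fold enrichment at the 20 sites ran alike in the 4 libraries. Pearson's r of log2 fold enrichment was 0.82 between YAC replicates, 0.82 between integrated replicates and 0.54 to 0.92 between contexts, over 20 sites that share their libraries and their DNA, with Spearman's rho of 0.83, 0.79 and 0.51 to 0.83.

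**Figure D4:**
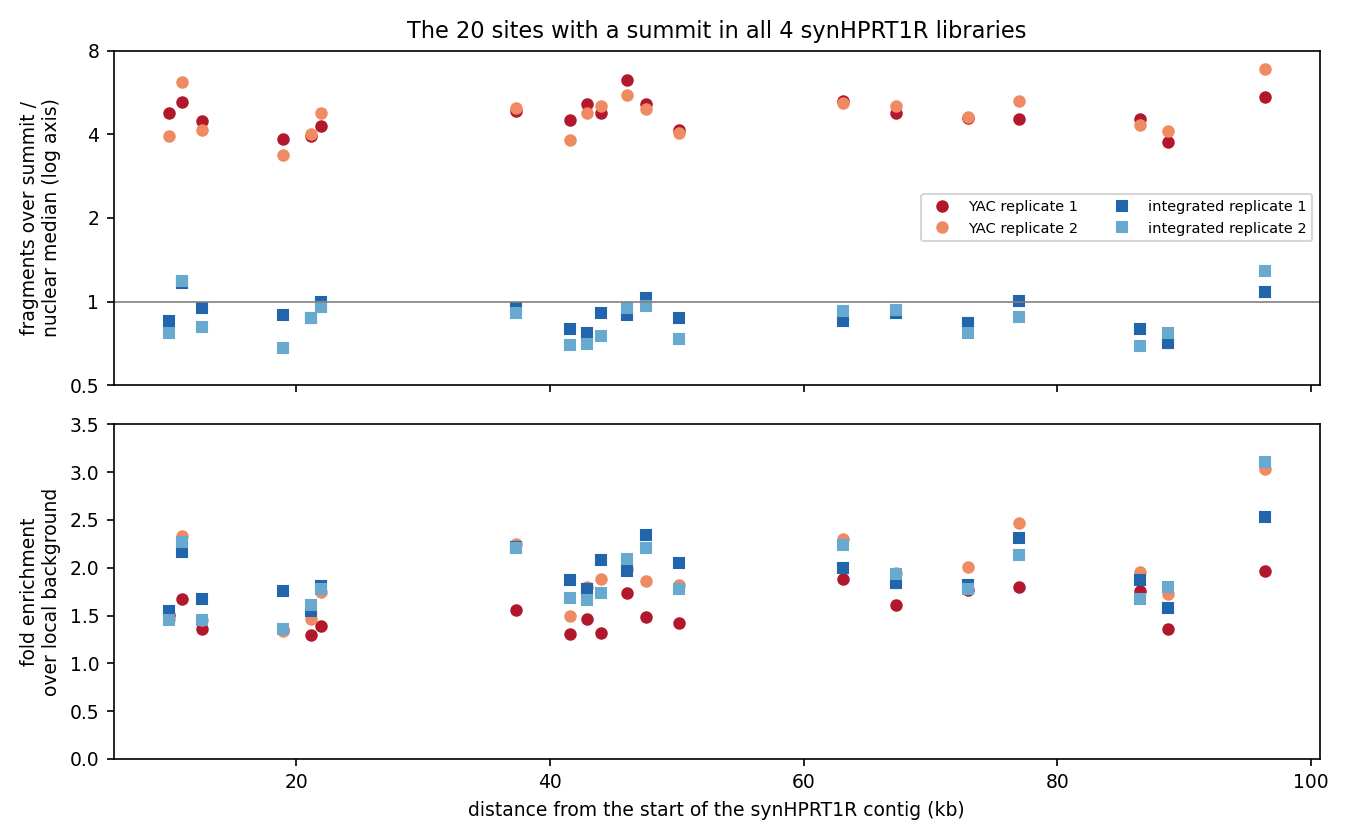
The 20 sites with a summit in all 4 libraries, by distance from the start of the contig in kb. The upper panel gives fragments over the summit divided by the nuclear median of the library on a log axis, and the lower panel fold enrichment over the local background. Circles are YAC and squares integrated libraries. YAC values lie between 3.36 and 6.87 in the upper panel and integrated values between 0.680 and 1.29, while the lower panel mixes the contexts.

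Along the YAC contig the background was not level. Its median in bins rose to 6.69 times the genome-wide value in the bin from 40 to 50 kb in YAC replicate 1 and to 6.52 times in the bin from 20 to 30 kb in YAC replicate 2. It was lowest from 50 to 60 kb, at 4.59 and 4.10 times in the 2 YAC libraries, the bin that also had fewest summits. In integrated libraries the bins from 0 to 40 kb had 1.04 to 1.34 times the genome-wide value and those from 50 to 100 kb 1.00 to 1.08 times. A ratio of 1.00 is the floor, so it does not show that the background was level there.

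Relative to nuclear DNA of the same length, synHPRT1R held more peaks in each library. Scaled to 100 kb it held 45.7 and 62.5 summits in YAC libraries, against 29.5 and 33.3 in nuclear windows, and 51.6 and 49.6 in integrated libraries, against 34.3 and 33.1. No nuclear window of 100 kb, of 1056 in each library, held as many summits. The log2 ratio averaged 0.68 ± 0.16 (SD, n = 4) and was positive in 4 of 4 libraries. A two-sided exact permutation test, which flips the signs of the ratios, gave p = 0.125, and 4 libraries cannot give a smaller value. Median spacing between neighbouring summits was 1504 and 1275.5 bp on the contig in YAC libraries, against 2781 and 2469 bp on nuclear chromosomes, and 1491 and 1530 bp in integrated libraries, against 2381 and 2499 bp. The log2 ratio of spacing averaged -0.81 ± 0.14 (SD, n = 4), and summits were closer together on the contig in 4 of 4 libraries, with p = 0.125 by the same exact test.

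In integrated libraries the higher number was reduced or lost once peaks of low −log10 q were left out. Restricted to peaks with a −log10 q of at least 10, the contig held 2.05 and 2.17 times the nuclear density in YAC libraries, and 1.17 and 0.904 times in integrated libraries. When each library was limited to its 3000 strongest peaks by −log10 q, these ratios were 1.63 and 2.18 in YAC libraries and 1.19 and 0.880 in integrated libraries. In integrated replicate 2 the ratio was thus below 1 in both cases.

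Covered share told the contexts apart more than number. Peaks covered 44.7% and 41.8% of the contig in YAC libraries, against 24.2% and 24.8% of nuclear windows, and 30.5% and 30.9% in integrated libraries, against 25.4% and 26.0%. The log2 ratio averaged 0.54 ± 0.33 (SD, n = 4) and was positive in 4 of 4 libraries, with an exact p = 0.125. Under the same limit of 10 for −log10 q, the contig was covered 2.2 and 1.79 times as much as nuclear windows in YAC libraries, and 1.01 and 0.874 times as much in integrated libraries. The median fold enrichment of the contig's peaks was 1.47 and 1.54 in YAC libraries, against 1.86 and 2.16 for nuclear peaks, and 1.87 and 1.77 in integrated libraries, against 2.16 and 2.21. It was lower on the contig in 4 of 4 libraries, and the log2 ratio averaged -0.34 ± 0.12 (SD, n = 4), again with an exact p = 0.125. Fragments over the summit had a median of 859.5 and 732 on the contig in YAC libraries, against 192 and 182 at nuclear peaks. In integrated libraries they had a median of 161 and 166.5 on the contig, against 184 and 203. The contexts thus lay on opposite sides of the nuclear level, and their log2 ratios averaged 0.92 ± 1.34 (SD, n = 4) with an exact p = 0.5.

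Between contexts the log2 ratio of fragments to the nuclear level was 2.09 ± 0.11 in YAC libraries and -0.24 ± 0.07 in integrated libraries (SD, n = 2 each). The difference of 2.32, a 5.01-fold one, exceeded the larger range between replicates of 0.15. The exact permutation test of 2 against 2 libraries gave p = 0.333 (two-sided), its lowest possible value. For covered share the log2 ratio was 0.82 ± 0.09 in YAC libraries and 0.25 ± 0.01 in integrated libraries (SD, n = 2 each). Its difference of 0.57 exceeded the larger replicate range of 0.13 (exact permutation p = 0.333). Peak number over all peaks did not separate in that way. Its log2 ratio was 0.77 ± 0.20 in YAC libraries and 0.59 ± 0.005 in integrated libraries (SD, n = 2 each), and the difference of 0.18 was smaller than the 0.28 between the YAC replicates (exact permutation p = 0.333). Once peaks less than 500 bp apart had been merged, that difference turned to -0.020. Among peaks of higher −log10 q the contexts did separate in number. The difference was 1.04 for peaks with a −log10 q of 10 or more and 0.88 for the 3000 peaks of highest −log10 q. In both cases each YAC library lay above each integrated library. The −log10 q rises with the number of fragments as well as with fold enrichment. At 42.9 kb it was 27.0 for a fold enrichment of 1.46 in YAC replicate 1, and 9.04 for 1.78 in integrated replicate 1. The part of this depth in the difference was not tested.

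Against the forward locus, summits of synHPRT1R were spaced much alike. Relative to nuclear chromosomes the log2 ratio of spacing averaged -0.81 ± 0.14 on synHPRT1R and -0.86 ± 0.08 on synHPRT1 (SD, n = 4 each). The difference of 0.05 was below the range within either locus (exact permutation test of 4 against 4 libraries, two-sided, p = 0.543). Adjustment of all 9 exact tests by the Benjamini-Hochberg method left p between 0.281 and 0.543.

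The known stretches allowed a look at what the covered DNA shares. Each was placed on the contig from segment lengths and overlaps. The 34-bp offset of this placement was set from position 21797, so that position is no separate check of it. The 20 stretches counted from the far end were not checked either. Over the 27 stretches, 3 were wholly under peaks in all 4 libraries, 7 lay under no peak in any library and 17 were covered in part. The 3 covered stretches had a G + C content of 47.1% to 50.6%, and the 7 without peaks had 25.3% to 42.1% with a median of 33.8%. The 17 others had a median of 42.6% and ran from 29.8% to 69.9%. The stretch of highest G + C content, 69.9% with 55 CpG dinucleotides (bases 69619 to 70017), was covered to 0% and 32.1% in YAC libraries and to 55.1% and 100% in integrated libraries.

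Across the 27 stretches G + C content and mean covered share went together, with Pearson's r of 0.54 and Spearman's rho of 0.69. Without the 2 stretches farthest from the median G + C content, r was 0.62. By library r was 0.19 and 0.47 in YAC libraries and 0.62 and 0.68 in integrated libraries. The stretches are neighbours on 1 molecule and were read in the same libraries, so these values describe them and carry no test. In 30248 nuclear tiles of 399 bases r was 0.28 over the mean of the 4 libraries. Nuclear tiles wholly under peaks in all libraries had a median G + C content of 40.4%, and those under none 37.3%.

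**Figure D5:**
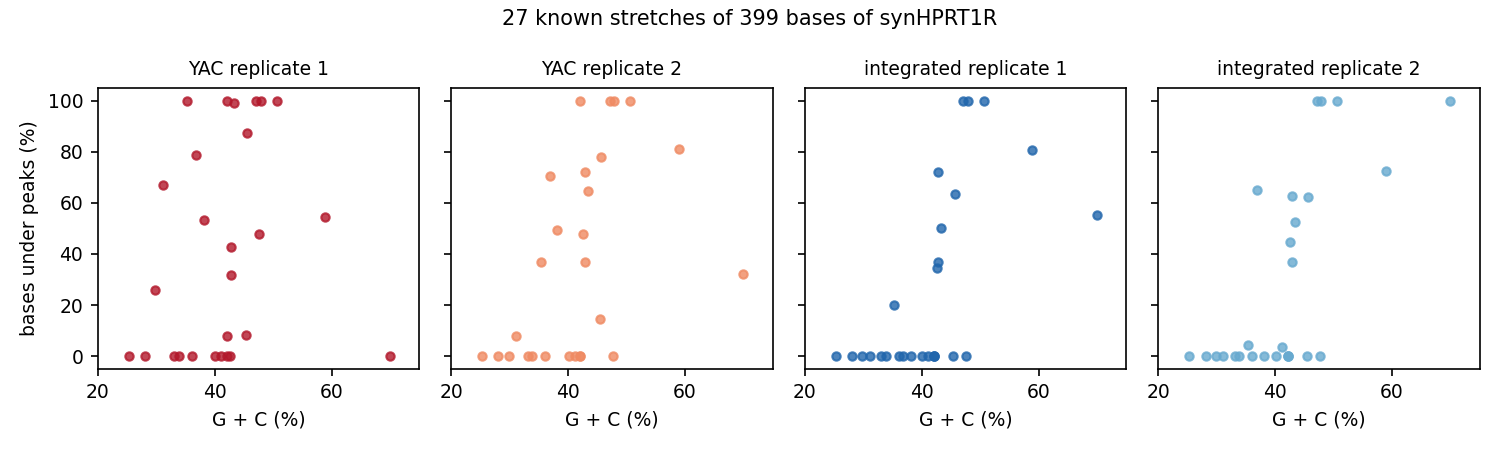
G + C content in percent (x axis) against the share of bases under peaks in percent (y axis) for 27 known stretches of synHPRT1R, 1 panel per library. Each point is a stretch of 399 bases. Pearson's r was 0.19 and 0.47 in YAC replicates 1 and 2, and 0.62 and 0.68 in integrated replicates 1 and 2.

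A set of 3 short motifs was searched in the stretches on both strands. TATAAA was present in 13 of 27 stretches (48.1%), against 36.5% of nuclear tiles of the same length. It occurred in 1 of the 3 wholly covered stretches and in 5 of the 7 without peaks. AAAAAAA, a run like those that keep nucleosomes away from yeast promoters, was in 15 stretches (55.6%), against 31.2% of nuclear tiles, and in 1 of the 3 covered and 6 of the 7 without peaks. TTACCCG, the core bound by the general regulatory factor Reb1, was in 1 stretch (3.70%), against 2.46% of nuclear tiles. That stretch (bases 7178 to 7576) was covered to 31.8% and 36.8% in YAC libraries and 36.8% and 36.8% in integrated libraries. Matches may overlap each other, a stretch with any match was counted once, and a match is a description of letters, not of a bound site.

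On synHPRT1R, 4 positions had been chosen by the authors for insertion of the Schizosaccharomyces pombe his5 coding sequence in other strains. They were transcription start sites that the paper identified by CAGE-seq, which maps capped RNA ends. The paper reports growth without histidine for each insertion. The 40 bases before each position are shown to place the peaks beside them. Capitals mark the last 10 bases before the insertion point. Positions follow the names of the oligos, and only the first lies in a known stretch. Its bases were found there on the given strand. The other bases, taken from the oligos, are placed as if on that strand. Neither their strand nor their place on the contig was checked. Distances below run along the contig, not in the direction of transcription.
Before position 21797, contig bases 21757 to 21796: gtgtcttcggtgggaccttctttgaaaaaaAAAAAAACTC
Before position 37903, contig bases 37863 to 37902: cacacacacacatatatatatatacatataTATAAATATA
Before position 78135, contig bases 78095 to 78134: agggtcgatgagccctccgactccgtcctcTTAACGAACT
Before position 88545, contig bases 88505 to 88544: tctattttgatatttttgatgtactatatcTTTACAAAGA
Position 78135 carries another name, 78235, in the oligo used to verify the insertion, and both are given. Position 78135 lay under peaks in all 4 libraries, and the nearest summits were 26 bp away in YAC replicate 2 and 25 bp away in integrated replicate 1. In YAC replicate 1 and integrated replicate 2 the nearest were 366 and 367 bp away. Position 78235 lay under peaks in both YAC libraries and in integrated replicate 2, with the nearest summits 266 and 126 bp away in YAC libraries and 125 and 267 bp away in integrated libraries. The 3 remaining positions lay under no peak in any library. Position 21797 was followed by the shared site at 22.0 kb, with summits 165 bp beyond it in both YAC libraries and 180 and 232 bp beyond it in integrated libraries. Position 88545 was followed by the shared site at 88.7 kb, with summits 173 bp beyond it in both YAC libraries and 164 and 168 bp beyond it in integrated libraries. The 40 bases printed for position 37903 had the lowest G + C content of the 4, at 17.5%. Its nearest summit was 447 bp away, at a site of YAC replicate 2 alone at 38.4 kb, and the shared site at 37.3 kb lay 562 to 581 bp before it in the other libraries. These 4 positions are set against the whole contig, where 21.8% of bases lay under peaks of all 4 libraries and 45.2% under none.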

How the data were processed

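Saccharomyces cerevisiae H3K4me3 CUT&RUN peak lists of 4 synHPRT1R libraries were used, with those of 4 synHPRT1 libraries for spacing and fragments. As its labels and methods state, the authors trimmed read pairs with Trimmomatic, aligned them with Bowtie2 2.2.9 to sacCer3 plus the synthetic contig, and called peaks in each library on its own with MACS2 2.1.0 on fragment pairs. Duplicates were kept and no control is named. Each deposited list gives positions, a fold enrichment (a ratio), p-values and q-values on the −log10 scale, and a display score that was not used further. Since the background comes from the same library, a raised background can split, join or hide peaks.

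Read totals are not in the lists, and those in the paper's reporting summary were not used. The genome-wide background, the value shared by 54.0% to 68.7% of nuclear peaks, was 98.9 and 78.6 fragments per base in YAC libraries and 78.0 and 83.3 in integrated libraries. Fragments over the summit were solved as whole numbers from the fold enrichment, taken as (fragments + 1) over (background + 1), together with the p-value of a Poisson tail. 1 peak with a misfit of −log10 p above 0.02 was left out of medians of fragments. On data simulated with the same formulas 100% of 2000 peaks came back within 1 fragment. This checks the solving, not whether the formulas hold for the deposited lists.

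The list of YAC replicate 1 names its peaks in another way than the other 7 lists, and values without it are given where they differ. A peak was counted at its summit. Ratios to nuclear windows of 100 kb at a step of 10 kb (16 chromosomes), or to nuclear peaks, were formed within a library on the log2 scale, and tested with exact two-sided permutation tests. Sites joined summits within 200 bp. Sites were named by rule: the 8 shared sites whose lowest −log10 q was highest, up to 4 sites particular to each context, the ends, the sites nearest the insertion positions, up to 6 sites in known stretches, and the extreme bins. Of the 6 sites named in known stretches, the one at 44.1 kb had 1 summit inside its stretch and is not printed as sequence, and a seventh, weaker one at 36.6 kb fell outside the rule. Further sites were named after their values were seen. Members, lists and rules were chosen with earlier results of these data known. Segment starts and oligos came from the supplementary tables of the study. 27 of 28 segments were placed, 7 from the start and 20 from the end, and a 34-bp offset between design and contig was set from position 21797. Positions in the sequences rest on this placement, and that position, having set the offset, is no separate check of it. A full sequence of the contig was not used here. Python 3.11.15, numpy 2.4.6, scipy 1.17.1 and matplotlib 3.10.9 were used. Alternatives were a −log10 q of at least 10, merging within 500 bp, the 3000 strongest peaks, other gaps for sites, and leaving out each replicate.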

Additional observations from a re-analysis of the deposited data

Results flagged for a closer look

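Fragments over the summit relative to nuclear peaks were above the nuclear level in both YAC libraries (4.48-fold and 4.02-fold) and below it in both integrated libraries (0.875-fold and 0.820-fold). The difference, 2.32 on the log2 scale, drew attention because every library of one context moved one way and every library of the other context the opposite way. With 2 libraries on each side the exact permutation test could not go below p = 0.333, so that test could not pass the threshold of 0.05, and no other test was run. Local background moved with it, at 5.67 and 5.46 times the genome-wide value in YAC libraries and 1.04 and 1.04 times in integrated libraries (medians over the peaks of the contig). The split was not particular to the reversed locus. On synHPRT1 the ratio of fragments was 4.27-fold and 4.14-fold in YAC libraries and 0.78-fold and 0.788-fold in integrated libraries, a difference that was not tested. More copies per cell and more signal per copy cannot be told apart in these lists, nor can context and medium. The paper estimated the copy number of the episomes from whole-genome sequencing, which was not used here. After correction for it, the paper reports H3K4me3 coverage of the episomal loci above the genome average.

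Peaks on the vector backbone, which lies beyond the locus and takes part in no comparison, numbered 9 over the 2 YAC libraries and 0 over the 2 integrated libraries. In YAC replicate 1 there were 4, with −log10 q of 50.5 to 146, and in YAC replicate 2 there were 5, with −log10 q of 17.6 to 206. The one next to the locus had its summit at base 100905 in both YAC libraries.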

How the results depend on the processing

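The mean ratios of locus to genome kept their sign under each alternative run, with p between 0.125 and 1 in exact permutation tests that could not pass 0.05. Merging peaks within 500 bp turned the YAC minus integrated difference in peak number to -0.020 and the synHPRT1R minus synHPRT1 difference in spacing to -0.10, and the cause was not tested. The first of these was 1.04 once peaks under a −log10 q of 10 were left out and 0.88 with the 3000 strongest peaks. Counts of sites depended on the definition. With presence judged by cover, 51 sites were in all libraries, 13 in both YAC and no integrated library and 1 in the reverse pattern. Without the peaks under a −log10 q of 10 the counts were 9, 11 and 4, or 11.7%, 14.3% and 5.19% of sites, against 30.9%, 1.98% and 5.62% of nuclear sites. With summits joined within 100 bp the reverse pattern had 6 sites (5.56%, against 4.56% of nuclear sites). Leaving out each replicate in turn, an alternative added after seeing the data, gave 21 to 33 sites in all remaining libraries, 8 to 19 in YAC alone and 5 to 15 in integrated alone, where the lone library of a context needs no partner. Without YAC replicate 1 the counts were 33, 19 and 5 (39.8%, 22.9% and 6.02% of sites, against 54.9%, 8.72% and 7.37% of nuclear sites). Without YAC replicate 2 they were 23, 18 and 15 (28.0%, 22.0% and 18.3%, against 39.8%, 14.1% and 18.6%). Paired by replicate number (replicate block), the YAC minus integrated differences stayed 0.18 for number, 0.57 for covered share and 2.32 for fragments, each with exact sign-flip p = 0.5, the smallest that 2 pairs allow. The difference in spacing stayed 0.05 in that block, with an exact permutation p = 0.375. The labels do not say whether a number marks a shared origin, and with 2 pairs this was not settled. Deviations of same-numbered libraries correlated at 0.03 over 2074 nuclear sites and 0.47 over the 20 shared sites of the contig. The lists hold no read totals, and those in the paper's reporting summary were not used. The genome-wide background was 98.9 and 78.6 fragments in YAC libraries and 78.0 and 83.3 in integrated libraries. How far depth limits weak peaks in integrated libraries, with a median −log10 q near 10, was not tested.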

Other observations

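In 5 of the 27 known stretches (18.5%) the letters GGACATTAG or CTAATGTCC were found, which are letters of the human Alu repeat read backwards. They were looked for after the printed sequences had been seen, and 57 of 30248 nuclear tiles (0.188%) held them. Of the 5 stretches, 1 was wholly under peaks in all 4 libraries, 3 were partly covered and 1 lay under no peak. The windows printed for the sites at 11 and 47.6 kb come from such stretches and hold these letters. Exact matches alone were counted, so these are not counts of stretches derived from the repeat. The window printed for the site at 84.2 kb, from a wholly covered stretch, holds CTGATGTCC, which differs in 1 letter and was not counted.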
